A study of Rattus norvegicus with 6 samples.

Results

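The lysyl oxidases Lox, Loxl1, Loxl2, Loxl3 and Loxl4 and the lysyl hydroxylases Plod1, Plod2 and Plod3 were followed in Achilles tendons of newborn rats. They were taken as the probe sets that the platform annotation assigns to 1 of these symbols alone. This gave 9 probe sets for 7 of the 8 genes, among 31042 probe sets and 14217 genes in all. Loxl4 had no such probe set and was not analysed here. A gene with several probe sets was represented by the one with the highest mean over the 6 arrays, and the other served as a check. The 2 ages were post-natal day 7 and post-natal day 1, with 3 arrays each, and the RNA on each array came from at least 2 animals. Tendons were untreated and were dissected under a microscope, and no source used here gives strain, sex or genotype. Transcripts were read on an Affymetrix rat array as 1 intensity per probe set, on a linear scale whose unit is arbitrary. Of the day 1 arrays, replicate 1 carried the most epidermis signal, replicate 2 lay nearest to day 7 on the first principal component and replicate 3 carried the most muscle signal, so values without single arrays are given where they matter. Replicates are pools of animals, and a p-value here speaks only for the variation from pool to pool.

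Fibrillar collagen gains its strength from covalent bonds between lysine residues of neighbouring molecules. The lysyl hydroxylases act first, inside the endoplasmic reticulum, where they add a hydroxyl group to chosen lysines with iron, 2-oxoglutarate and ascorbate. The lysyl oxidases act later, outside the cell, where these copper enzymes turn lysine and hydroxylysine into aldehydes that condense into cross-links. In tendon the ratio of hydroxylated to plain lysine in the ends of the chain, the telopeptides, sets which kind of cross-link forms.

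Promoter sequences were matched by symbol in a RefSeq table of the rat assembly GRCr8, which held 6 of the 8 genes. The 3 shown are those of Loxl1 and Loxl3, from the family whose signal was higher on day 7, and of Plod2, whose change was the smallest of the members. Each runs 5′ to 3′ on the gene's strand from 250 bases before the gene start to 50 bases after it. Capitals mark the core of the hypoxia response element, ACGTG or GCGTG, searched on both strands. Loxl1 lies at chr8:67612175-67612474 on the minus strand, Loxl3 at chr4:117098108-117098407 on the plus strand and Plod2 at chr8:101964068-101964367 on the plus strand.
Loxl1: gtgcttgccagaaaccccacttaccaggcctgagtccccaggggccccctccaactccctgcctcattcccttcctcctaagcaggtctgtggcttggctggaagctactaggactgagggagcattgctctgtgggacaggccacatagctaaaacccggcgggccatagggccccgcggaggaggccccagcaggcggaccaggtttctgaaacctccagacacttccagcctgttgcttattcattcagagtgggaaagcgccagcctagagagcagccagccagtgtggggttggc
Loxl3: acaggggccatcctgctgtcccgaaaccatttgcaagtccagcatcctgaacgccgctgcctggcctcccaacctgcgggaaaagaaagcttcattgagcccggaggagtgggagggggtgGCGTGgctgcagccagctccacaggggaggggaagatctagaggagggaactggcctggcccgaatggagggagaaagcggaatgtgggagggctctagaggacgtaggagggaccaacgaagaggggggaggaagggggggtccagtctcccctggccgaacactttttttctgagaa
Plod2: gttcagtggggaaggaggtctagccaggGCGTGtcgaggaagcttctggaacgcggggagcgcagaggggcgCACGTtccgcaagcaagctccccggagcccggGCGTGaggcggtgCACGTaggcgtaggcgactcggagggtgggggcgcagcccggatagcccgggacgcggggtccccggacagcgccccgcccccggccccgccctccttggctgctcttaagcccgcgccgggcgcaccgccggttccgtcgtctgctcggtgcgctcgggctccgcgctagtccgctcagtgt
Plod2 held 4 such cores, at positions -222, -178, -146 and -133 from the gene start, none of which overlapped another. Loxl3 held 1, at position -129, and Loxl1 held 0. Plod1, Plod3 and Loxl4, not printed, held 1, 2 and 0. Lox and Loxl2 had no matched promoter. Of 33469 rat promoters of the same length, 41.6% held at least 1 such core and 3.46% held at least 4, where overlapping sites on opposite strands count separately. Motifs of AP-1, SP1 and SMAD factors and the TATA box were searched in the same promoters and are not given here. The hypoxia core was thus picked from several motifs, which the share of 3.46% does not take into account. These letters are a description of the sequence, and no binding was measured.

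All 4 measured lysyl oxidases were brighter on every day 7 array than on any day 1 array, by 1.44-fold to 1.57-fold, and none of the 3 lysyl hydroxylases showed this. No member passed the test across all genes (limma, Benjamini-Hochberg adjusted p under 0.05), where 5.08% of genes did, 1.93% as higher and 3.15% as lower. At an unadjusted p under 0.05, 4 members were higher and 0 lower, against 10.6% and 17.0% of all genes. The day 7 arrays lay wholly above the day 1 arrays for 4 of the 7 members and wholly below for 0, against 14.0% and 19.1% of all genes. In bulk tissue, fewer cells of a type and less RNA per cell cannot be told apart. The median log2 change was 0.56 over the 4 oxidases and -0.07 over the 3 hydroxylases, where that of all 14217 genes was -0.01. The oxidases ran from 0.52 to 0.65 and the hydroxylases from -0.15 to 0.40, the last being Plod1. Whether the 2 families differ was not tested.

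Lox encodes the founding enzyme of the family, which acts on fibrillar collagens and elastin. Its representative probe set, 1368172_a_at, read 2306, 2045 and 1940.4 on day 7 replicates 1, 2 and 3, against 1290.4, 1938 and 1236 on day 1 replicates 1, 2 and 3. The groups did not overlap, but day 1 replicate 2 came within a few units of the lowest day 7 array, while the other day 1 arrays lay far below. The means were 2097 ± 188 on day 7 and 1488 ± 390.5 on day 1 (SD, n = 3 each), a 1.44-fold difference (95% interval 1.07 to 1.92; limma adjusted p = 0.149). Without day 1 replicate 2 the log2 change was 0.73 in place of 0.52 and passed (limma adjusted p = 0.0403). In the other fits without 1 array it did not pass, and the change was as low as 0.40 without day 1 replicate 3 (limma adjusted p = 0.339) and 0.43 without day 1 replicate 1 (0.359). The second Lox probe set, 1368171_at, read 2135, 1743 and 1594 on day 7 and 989, 1443 and 938 on day 1. It ordered the arrays within each age in the same way as the first. Its difference was 1.64-fold (95% interval 1.21 to 2.23; limma adjusted p = 0.0819), again short of the threshold.

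Loxl1 encodes the family member known, from mouse knockouts, for the upkeep of elastic fibres. Its probe set, 1388902_at, read 619, 568 and 466 on day 7, against 312, 345 and 393 on day 1. Here the highest day 1 array was replicate 3, which was the lowest of the day 1 arrays for the other 3 oxidases. The means were 551 ± 77.7 on day 7 and 350.1 ± 40.5 on day 1 (SD, n = 3 each), a 1.57-fold difference (95% interval 1.24 to 1.98). The adjusted p was 0.0538 in limma, the smallest among the members. It fell under the threshold after quantile normalization (limma adjusted p = 0.0310), with array weights (0.0213), among the brighter probe sets alone (0.0395) and with an intensity trend (0.0381). Without 1 array it ran from 0.0642 to 0.173 in limma. In the remaining alternatives it stayed above the threshold. It ran there from 0.0526 with the mean of probe sets to 0.152 with a block for replicate number (limma).

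Loxl2, which cross-links the type IV collagen of basement membranes among other substrates, read 365, 383 and 325 on day 7 on probe set 1391450_at. On day 1 the same probe set read 264, 286 and 172. The groups did not overlap, and day 1 replicate 3 stood well below the rest. Day 7 arrays averaged 357 ± 29.9 and day 1 arrays 240.5 ± 60.7 (SD, n = 3 each), a 1.52-fold difference (95% interval 1.11 to 2.07; limma adjusted p = 0.126). Without day 1 replicate 3 the log2 change was 0.38 in place of 0.60. The dimmer second probe set, 1380474_at, read 78.8, 63.2 and 52.5 on day 7 and 72.7, 44.8 and 39.5 on day 1. Those groups overlapped, and the log2 change was 0.33 with an interval that spans 0 (-0.22 to 0.89; limma adjusted p = 0.459).

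Loxl3, whose loss in mice causes cleft palate and spinal defects, read 328, 351 and 299 on day 7 on probe set 1385695_at, against 239, 272 and 177 on day 1. The order of the arrays within each age was that of Loxl2. Day 7 arrays averaged 326 ± 25.9 and day 1 arrays 229 ± 48.0 (SD, n = 3 each), a 1.44-fold difference (95% interval 1.10 to 1.88; limma adjusted p = 0.123). Without day 1 replicate 3 the log2 change was 0.35 in place of 0.52.

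**Figure D1:**
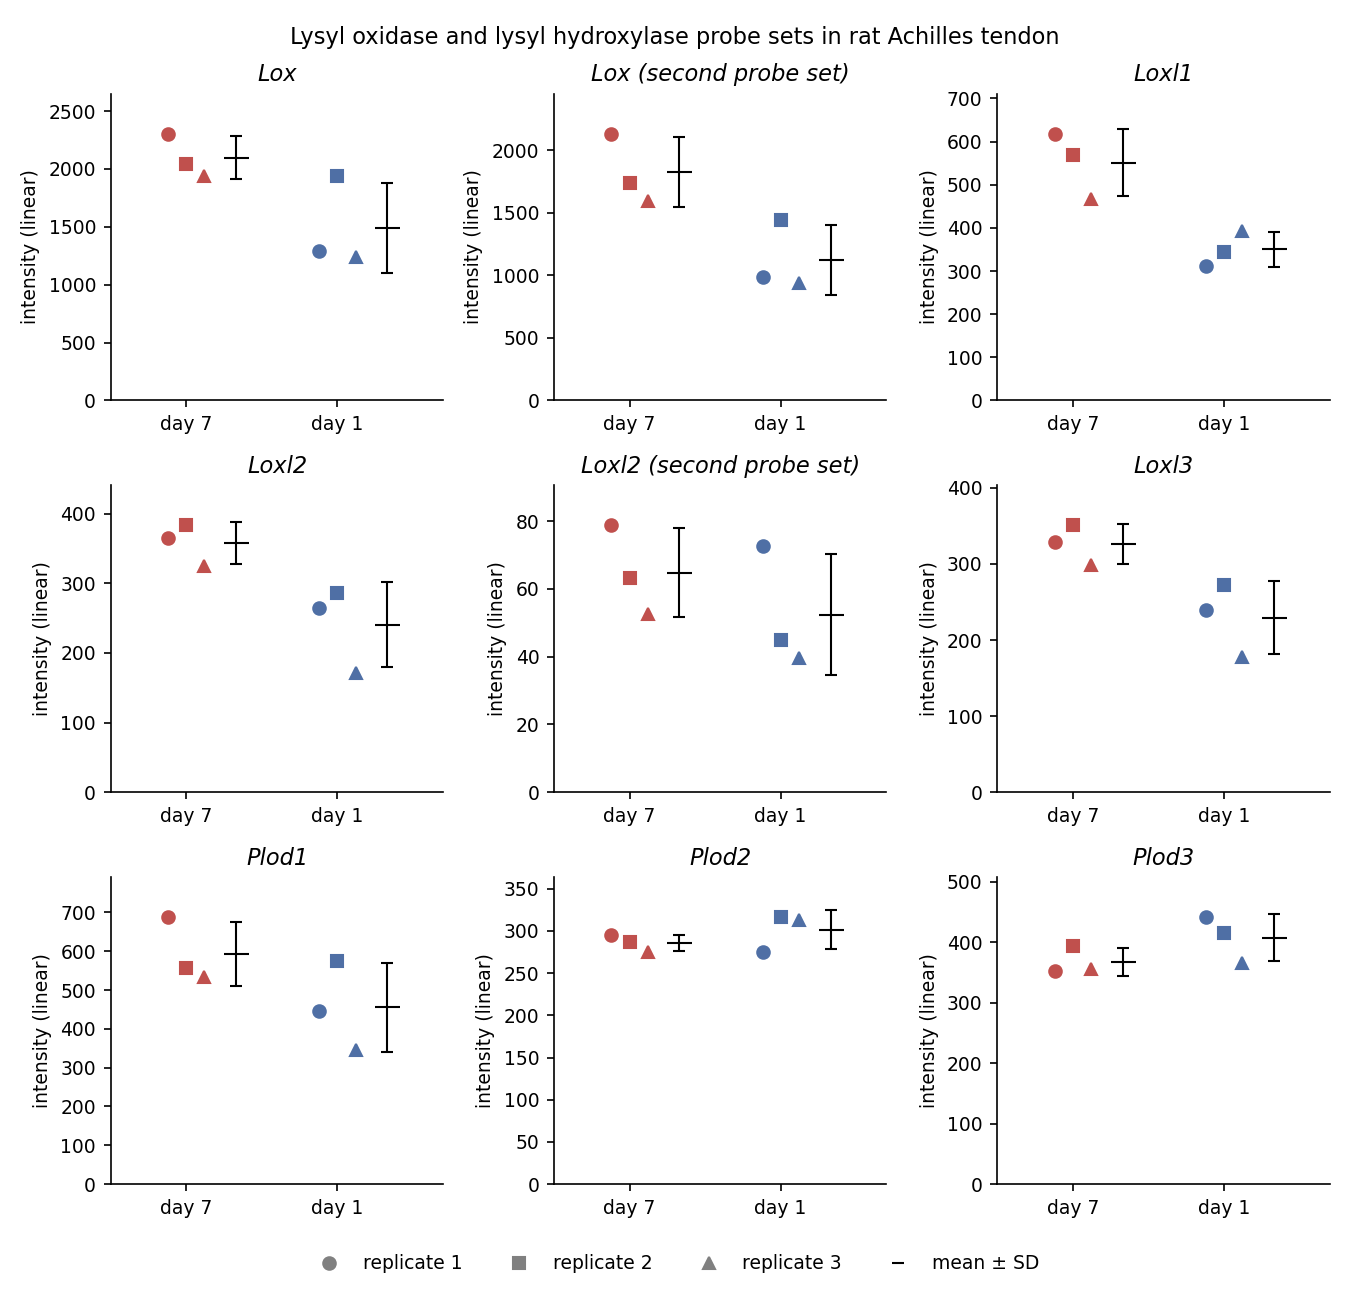
Intensity (linear, vertical axis from 0) of each of the 9 probe sets on the 3 day 7 arrays (red) and the 3 day 1 arrays (blue), with the mean ± SD of each age in black. The 4 oxidases do not overlap between ages on their representative probe sets, while the second Loxl2 probe set and the 3 hydroxylases do.

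The lysyl hydroxylases differed among themselves. Plod1, which encodes the enzyme that hydroxylates lysines of the collagen triple helix, read 688, 558 and 534 on day 7 on probe set 1367807_at, against 446, 574 and 345 on day 1. Day 1 replicate 2 lay above 2 of the day 7 arrays, so the groups overlapped. Day 7 arrays averaged 593 ± 83.0 and day 1 arrays 455 ± 115 (SD, n = 3 each), which gave a log2 change of 0.40 (95% interval -0.05 to 0.85; limma adjusted p = 0.275). The interval holds both no difference and a 1.81-fold higher level on day 7. Without day 1 replicate 3 the log2 change was 0.22, and without day 1 replicate 2 it was 0.59.

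Plod2 encodes the hydroxylase of the telopeptide lysines. On probe set 1372897_at it read 295, 287 and 275 on day 7, against 275, 316 and 313 on day 1, the smallest spread of any member. Day 7 arrays averaged 286 ± 10.1 and day 1 arrays 301 ± 23.2 (SD, n = 3 each), which gave a log2 change of -0.07 (95% interval -0.32 to 0.17; limma adjusted p = 0.729). The interval in folds ran from 0.799 to 1.13. After quantile normalization the sign turned, at 0.04.

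Plod3 encodes an enzyme that hydroxylates lysine and also attaches sugars to hydroxylysine. Its probe set, 1372877_at, read 353, 393 and 355 on day 7 and 441, 415 and 365 on day 1. Only the lowest day 1 array reached into the day 7 range. Day 7 arrays averaged 367 ± 22.7 and day 1 arrays 407 ± 38.7 (SD, n = 3 each), which gave a log2 change of -0.15 (95% interval -0.42 to 0.12; limma adjusted p = 0.499).

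**Figure D2:**
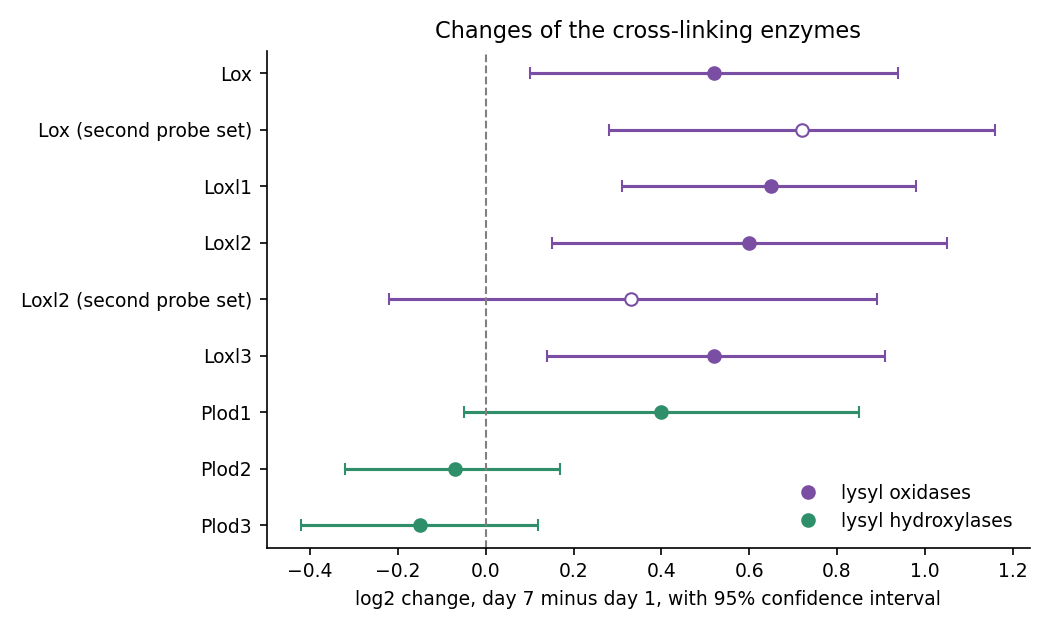
Log2 change from day 1 to day 7 (horizontal axis, day 7 minus day 1) of each probe set, with limma's 95% confidence interval; filled points are representative probe sets and open points second probe sets. The intervals of the 4 oxidases lie above 0 on the representative probe sets, and those of the 3 hydroxylases span 0.

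Whether 2 genes changed unequally was read from the log2 ratio of their intensities on each array, which compares changes and not levels. Each of the 4 oxidases was set over each of the 3 hydroxylases, as a description without a test. Over Plod2 and Plod3, all 8 ratios were higher on every day 7 array than on any day 1 array, with changes of 0.60 to 0.80 on the log2 scale. Over Plod1, 0 of the 4 ratios were, and the changes were 0.12 to 0.25. The 4 oxidases already did not overlap, while Plod2 and Plod3 varied little (SD over the 6 arrays 0.09 and 0.13 on the log2 scale). The 8 ratios reuse the same gene profiles and restate that non-overlap. The share of all gene pairs whose ratio separates the ages was not computed.

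Among 9 pairs that were tested, the ratio of Plod1 to Plod2, the helical over the telopeptide enzyme, changed by 0.48 on the log2 scale. Centred on the 6 arrays, its day 7 values were 0.41, 0.15 and 0.15, against day 1 values of -0.11, 0.05 and -0.66. The groups did not overlap, and the exact two-sided permutation test gave p = 0.10, the smallest that 3 arrays against 3 allow (0.450 after Benjamini-Hochberg adjustment over the 9 pairs). The change of this ratio was 0.26 without day 1 replicate 3. Plod2 over Col1a1, its main substrate chain, had a change of -0.58, with day 7 values of -0.38, -0.26 and -0.24, against day 1 values of 0.06, 0.03 and 0.78. It too had an exact permutation p of 0.10 (0.450 adjusted), and without day 1 replicate 3 the change was -0.34. Lox over Col1a1 had a change of 0.01, with 0.01, 0.00 and 0.00 on day 7 and -0.28, 0.07 and 0.19 on day 1 (exact permutation p = 1.00). The other 6 pairs had changes between -0.13 and 0.05 and exact permutation p-values from 0.200 to 1.00.

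**Figure D3:**
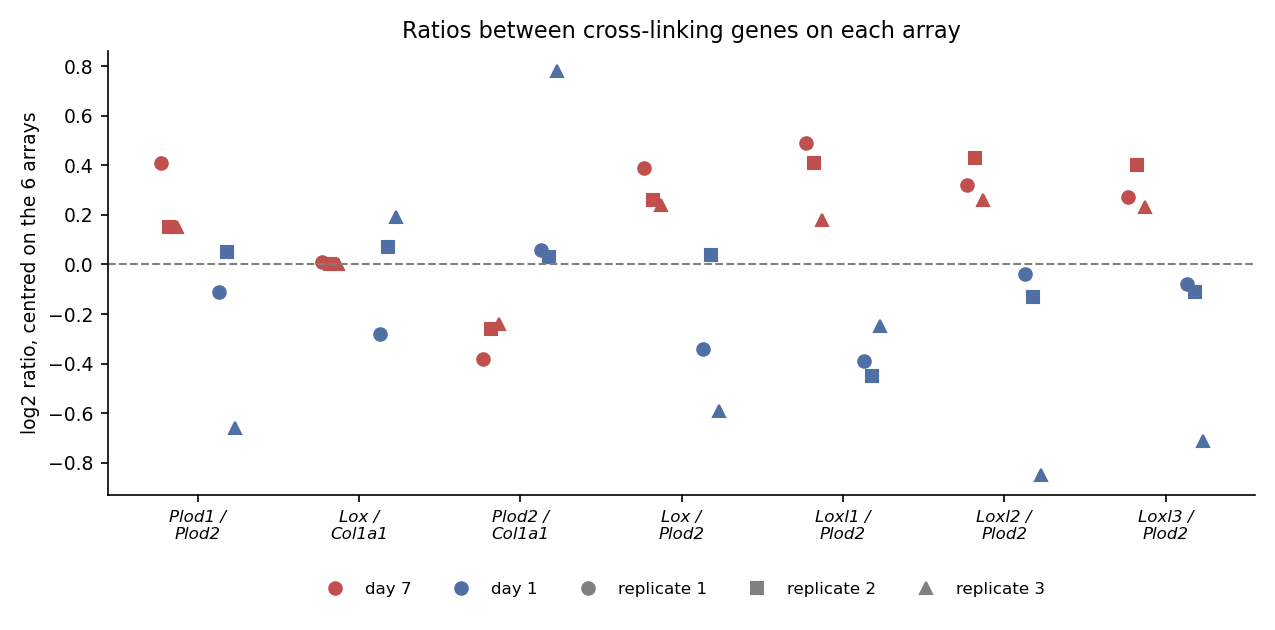
Log2 ratio of 2 genes' intensities on each array (vertical axis, centred on the 6 arrays), day 7 in red left of day 1 in blue. The 4 oxidases and Plod1 over Plod2 lie higher on all day 7 arrays, Plod2 over Col1a1 lies lower, and Lox over Col1a1 lies between -0.28 and 0.19 on all 6.

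The substrates of these enzymes gave a mixed picture, and none of the 6 passed the test. Col1a1, the main chain of tendon collagen, read 15023, 13424 and 12742 on day 7 and 10293, 12179 and 7127 on day 1. The groups did not overlap, and the log2 change was 0.51 (95% interval 0.06 to 0.96; limma adjusted p = 0.179). The change was 0.29 without day 1 replicate 3 (limma adjusted p = 0.342). Col1a2 had a change of 0.43 (0.170), Col3a1 of 0.19 (0.409) and Col5a1, which helps to set fibril width, of -0.07 (0.864), the adjusted p from limma in brackets. The Col5a1 change had the opposite sign in 3 alternatives, among them that without day 1 replicate 2 (0.12). Elastin, Eln, read 439, 333 and 372 on day 7 and 188, 330.5 and 175 on day 1, with a log2 change of 0.77 (limma adjusted p = 0.117). Its day 1 replicate 2 nearly reached the lowest day 7 array, and without it the change was 1.06 (limma adjusted p = 0.0309), while in the other 5 fits without 1 array Eln did not pass (0.136 to 0.299). The second Eln probe set overlapped between ages, with a log2 change of 0.52 (limma adjusted p = 0.210). Col2a1, the collagen of cartilage, had a log2 change of 1.33 (limma adjusted p = 0.0932; 0.0399 without day 1 replicate 2 and 0.0397 with array weights). With the mean of its probe sets the change was 0.80 (limma adjusted p = 0.228), since its 2 other probe sets had changes of 0.90 and 0.18. Saturation of the brightest collagen probe sets was not tested.

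Of 44 listed partners of the enzymes, 39 were measured, of which 1 rose and 2 fell (limma adjusted p under 0.05), where 1.93% of all genes rose and 3.15% fell. Their median log2 change was 0.13, and the day 7 arrays lay wholly above the day 1 arrays for 9 and wholly below for 5, against 14.0% and 19.1% of all genes. Whether the partners as a group differ from the background was not tested, so these counts are no result about them as a group. The one that rose was decorin, Dcn, a proteoglycan of the fibril surface, which read 6741, 6117 and 5753 on day 7 and 3531, 4113 and 3136 on day 1. The log2 change was 0.79 (SE 0.13; limma adjusted p = 0.0277). Fibromodulin, Fmod, which binds both collagen and Lox, had the largest change of the list. It read 9099, 7670.2 and 5999 on day 7 and 3423, 5056 and 1825 on day 1, with a log2 change of 1.24 (SE 0.34; limma adjusted p = 0.0888, and 0.0419 without day 1 replicate 2). Its change was 0.85 without day 1 replicate 3 (limma adjusted p = 0.144). Biglycan, Bgn, had a log2 change of 0.69 and no overlap (limma adjusted p = 0.126, and 0.0482 without day 1 replicate 2). Without day 1 replicate 3 its change was 0.46 (limma adjusted p = 0.260). Fibulin 1, Fbln1, was lower on every day 7 array (-0.66; limma adjusted p = 0.0977). The dimmer second Fbln1 probe set overlapped, with a log2 change of 0.03 (limma adjusted p = 0.915). With the mean of its probe sets the Fbln1 change was -0.32 (limma adjusted p = 0.244). The elastic fibre genes Fbln5 and Efemp2, whose proteins bring oxidases to elastin, had log2 changes of 0.17 and -0.01 (limma adjusted p = 0.589 and 0.975). The Dcn call was lost in 5 of the 6 fits without 1 array, all but that without day 1 replicate 2.

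Among the 6 partners of the hydroxylases in the endoplasmic reticulum, 1 fell and none rose. The chaperone Hspa5, also known as BiP, read 682, 756 and 722 on day 7 and 1335, 1255 and 987 on day 1. The log2 change was -0.72 (SE 0.14; limma adjusted p = 0.0371). Its call was lost in 8 of the 15 alternatives, among them quantile normalization (limma adjusted p = 0.0633) and 5 of the 6 fits without 1 array, all but that without day 1 replicate 3. Fkbp10, a prolyl isomerase that promotes the telopeptide activity of the Plod2 enzyme, was higher on every day 7 array. It read 1116, 969 and 923 on day 7 and 721, 893 and 598 on day 1 (log2 change 0.46; limma adjusted p = 0.155). The collagen chaperone Serpinh1 also did not overlap (log2 change 0.34; limma adjusted p = 0.164). P3h3, P3h4 and Ppib, which form or assist the complex that serves helical lysines, had log2 changes of 0.23, 0.13 and 0.04 with overlapping groups (limma adjusted p = 0.683, 0.632 and 0.893).

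Of the enzymes that build or trim the sugars on hydroxylysine, none of 3 passed. Pgghg, a glucosidase that removes glucose from the disaccharide, read 153, 125 and 124 on day 7 and 92.1, 111 and 71.8 on day 1 (log2 change 0.56; limma adjusted p = 0.113). The galactosyltransferase Colgalt1 had a log2 change of 0.05 (limma adjusted p = 0.852), and its dim relative Colgalt2 read 9.08 to 12.6 on day 7 and 12.8 to 15.7 on day 1 (-0.39; limma adjusted p = 0.172). Among 4 measured genes listed under oxidase activation, none passed, and Pcolce alone did not overlap. Pcolce encodes an enhancer of procollagen proteases, and an effect of it on the oxidases was not tested. It read 2906, 2490.4 and 2324 on day 7 and 1752, 2247 and 1308 on day 1 (log2 change 0.57; limma adjusted p = 0.148), and without day 1 replicate 3 the change was 0.37. Bmp1, the protease that cuts the Lox proenzyme, had a log2 change of 0.31, and Fn1 and Postn, matrix proteins that promote this cut, had changes of 0.13 and 0.21, all with overlapping groups.

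Of 6 genes of copper supply, none passed. Atp7a, the pump that loads copper into secreted enzymes including the lysyl oxidases, read 203, 207 and 212 on day 7 and 272, 282 and 287 on day 1. Both groups were tight and lay far apart for their spread, and the log2 change was -0.43 (95% interval -0.66 to -0.21; limma adjusted p = 0.0546). It passed with array weights (0.0361), after centring on array medians (0.0498), with a pseudocount of 16 (0.0264) and among the brighter probe sets (0.0447), the limma adjusted p in brackets. After quantile normalization and with the mean of its probe sets it did not pass, nor in any of the 6 fits without 1 array (limma adjusted p from 0.0907 to 0.171). Its 2 other probe sets had log2 changes of -0.54 and -0.08 with overlapping groups (limma adjusted p = 0.240 and 0.737). The importer Slc31a1 had a log2 change of 0.07 and the chaperone Atox1 one of 0.15 (limma adjusted p = 0.761 and 0.546). The other Slc31a1 probe sets were dimmer and did not share a direction. On 1368045_at the day 7 arrays were all lower (-0.35; limma adjusted p = 0.234) and on 1368046_at all higher (0.31; 0.219). On 1394871_at the groups overlapped (-0.18; limma adjusted p = 0.425).

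Other cross-linking enzymes were read beside the lysyl oxidases. F13a1, the transglutaminase subunit of coagulation factor XIII, read 33.9, 66.1 and 49.7 on day 7 and 95.2, 102 and 121 on day 1. The log2 change was -1.12 (SE 0.23; limma adjusted p = 0.0433). That call was lost in 9 of the 15 alternatives. They were quantile normalization (limma adjusted p = 0.0578), a pseudocount of 16 (0.0713), the mean of probe sets (log2 change -0.81; 0.110), the replicate block (0.0787) and 5 of the 6 fits without 1 array, all but that without day 7 replicate 2. The second F13a1 probe set overlapped between ages, with a log2 change of -0.49 (limma adjusted p = 0.312). The tissue transglutaminase Tgm2 read 326, 364 and 340.2 on day 7 and 311, 232 and 269 on day 1 (log2 change 0.35; limma adjusted p = 0.174). The dimmer second Tgm2 probe set overlapped, with a log2 change of 0.01 (limma adjusted p = 0.988). The epidermal enzymes Tgm1 and Tgm3 read 24.6 and 42.6 on day 1 replicate 1, where the summed intensity of 6 epidermis markers was 5543, against 144 to 388 on the other arrays. Elsewhere Tgm1 read at most 8.66, and Tgm3 averaged 10.8 ± 1.22 on day 7 (SD, n = 3). Neither passed. Pxdn, the peroxidase that forms sulfilimine bonds in type IV collagen, had a log2 change of -0.08 (limma adjusted p = 0.812). Among 4 genes of ascorbate and iron supply none passed, and Slc23a2, an ascorbate transporter, alone did not overlap (log2 change 0.10; limma adjusted p = 0.607). The dim second Slc23a2 probe set overlapped, with a log2 change of -0.07 (limma adjusted p = 0.828).

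**Figure D4:**
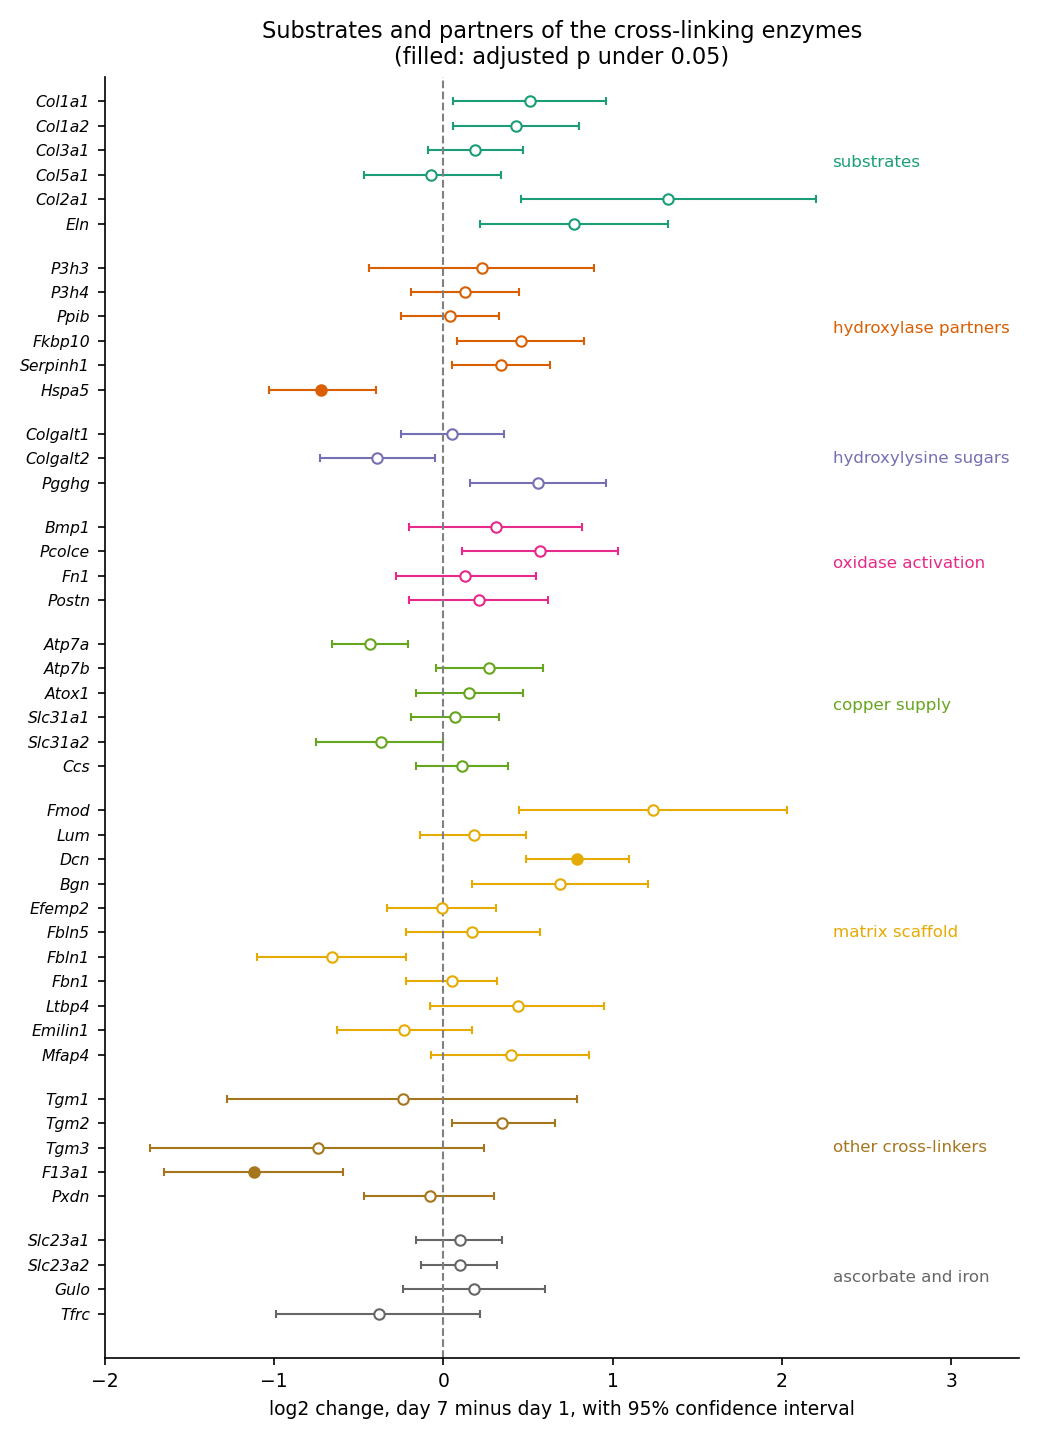
Log2 change (horizontal axis, day 7 minus day 1) of 6 substrates and 39 partners of the enzymes, grouped by role, with limma's 95% confidence interval; filled points passed an adjusted p of 0.05. Dcn lies above 0 and Hspa5 and F13a1 lie below it as the 3 that passed.

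The genes whose profile lay nearest to that of a member were sought for the 3 members with the largest spread over the 6 arrays, Loxl2, Loxl1 and Lox. Likeness was the root mean square difference of log2 profiles centred on their own mean, over 6 arrays and 13136 other genes. For Lox the nearest were Fkbp7 (0.0375), a prolyl isomerase of the endoplasmic reticulum, Igf1 (0.0475), a growth factor, and Ctsk (0.0548), the collagen-cutting cathepsin K. For Loxl2 they were Loxl3 (0.0673), the transcription factor Nfix (0.0699) and Bst1 (0.0706), and for Loxl1 they were Smim10l1 (0.0566), Taf4b (0.0646) and Smim3 (0.0881). Loxl3 was thus the gene nearest to Loxl2 of all those searched, by a small margin over Nfix and Bst1. How often 2 genes lie this near was not computed, and shared regulation was not tested.

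The arrays differed in more than age. The tendon markers were present on all arrays, and 5 of 6 were measured, Tnmd, Scx, Fmod, Thbs4 and Col1a1. None of them passed, and their summed intensity ran from 26462 to 34841 on day 7 and from 12911 to 25601 on day 1. Day 1 replicate 3, the lowest array for Lox, Loxl2, Loxl3, Plod1 and Col1a1, also had the lowest tendon sum and the highest muscle sum. Col1a1 is itself in the tendon sum, with 7127 of the 12911 on that array, so its own match with the sum is built in. The muscle list, 16 of 16 measured with 6 that fell and none that rose, summed to 38666 to 57314 on day 7, against 64919 to 81178 on day 1. The cartilage list, with 3 that rose of 12, summed to 6188 to 10798 on day 7 and 2173 to 5447 on day 1, and the adipocyte list, with 10 that rose of 12, to 3629.8 to 8042 on day 7 and 1675 to 2009 on day 1. The sums of 7 nerve markers, of which 1 rose and 1 fell, were 2263 to 8856 on day 7 and 1893 to 2233 on day 1, and those of 7 endothelial markers, of which 1 rose, 1939 to 2304 on day 7 and 1603 to 2119 on day 1. The 6 bone markers, none of which passed, summed to only 49.6 to 66.8 on day 7 and 58.0 to 71.0 on day 1. None of the 6 epidermis markers passed. No measured marker of these lists averaged at or below 4.76, the highest reading of a bacterial trp control. The part of these tissue shares in the differences of the oxidases was not tested. The upper quartile of intensity was 84.1 to 91.8 on day 7 and 94.3 to 95.9 on day 1. The lower quartile was 7.32 to 7.90 on day 7 and 6.91 to 7.08 on day 1. The counts of genes called higher and lower moved with quantile normalization, as given below. Median intensities were 20.5 to 21.1 on the 6 arrays, and the number of arrays limits the precision of each value. The ratio of 3′ to 5′ control probe sets, a check on RNA quality, was less even. For GAPDH it was 1.73 to 2.09 on day 7 and 1.74 to 1.80 on day 1. For beta-actin it was 2.17 to 3.35 on day 7 and 1.80 to 2.85 on day 1. The part of RNA quality in the differences was not tested.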

How the data were processed

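The deposited table held 1 linear intensity per probe set and array. The submitters' processing notes name MAS5 and RMA, with no role or version, and no source used here states the scaling or how background was corrected. Intensities were taken as log2(value + 1), 57 control probe sets were left out, and the other 31042 were fitted with limma 3.58.1 in R 4.3.3 (lmFit and eBayes, day 7 minus day 1, two-sided, Benjamini-Hochberg adjustment over all of them, threshold 0.05). The fit was tested on simulated intensities. Genes with 1 symbol numbered 14217, counted at their brightest probe set. Intervals are limma's at 95%, unadjusted. Ratios used an exact permutation test over the 20 splits of the arrays. No set test was run. Members and lists were chosen with earlier results of these data known. Named were all members and substrates, partners that passed or did not overlap, and other partners to complete a role, the last chosen after their values were seen. Alternatives were quantile normalization, median centring, a pseudocount of 16, brighter probe sets alone, the mean of probe sets, an intensity trend, weights per array, a block for replicate number and arrays left out. The background correction could not be varied, since only summarised values were used here.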

Additional observations from a re-analysis of the deposited data

How the results depend on the processing

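The oxidases kept their sign in each of the 15 alternatives, with log2 changes of 0.40 to 0.74 for Lox, 0.56 to 0.76 for Loxl1, 0.38 to 0.74 for Loxl2 and 0.35 to 0.66 for Loxl3. In most alternatives the sign could not turn, since the day 7 and day 1 arrays did not overlap. Only quantile normalization, median centring and the mean of probe sets could have turned it. The kept sign therefore mostly restates that non-overlap. The count of members called higher was 1 in place of 0 after quantile normalization, with array weights, among the brighter probe sets and with an intensity trend, each time Loxl1, and 0 to 1 without 1 array. That of members called lower was 0 in each alternative. Partners called higher numbered 2 with array weights, 0 with the replicate block and 0 to 3 without 1 array. Partners called lower numbered 0 after quantile normalization and with the replicate block, 1 with the mean of probe sets and without both arrays numbered 2, and 0 to 1 without 1 array. Over all genes, 274 were higher and 448 lower, and 352 and 320 after quantile normalization. With array weights 538 were higher and 897 lower, with the replicate block 25 and 8, with a pseudocount of 16 182 were higher, and without 1 array 4 to 271 were higher and 0 to 382 lower. The lowest counts came without day 7 replicate 1. Arrays of the same number did not deviate together (correlations of 0.0458, -0.249 and -0.141 over probe sets), so the number is not taken to pair them.

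The sign turned after quantile normalization for Plod2 (0.04) and Plod1 over Col1a1 (0.02). With the mean of probe sets it turned for Col5a1 (0.05) and Lox over Loxl2 (0.15), and Loxl1 over Eln stood at 0.00. Without both arrays numbered 2 it turned for Col5a1 (0.09), Lox over Loxl1 (0.13), Lox over Loxl2 (0.05) and Loxl1 over Loxl2 (-0.08). Loxl1 over Loxl2 also turned without day 7 replicate 1 (-0.02), day 1 replicate 1 (-0.11) and day 1 replicate 2 (-0.10). Without day 1 replicate 1 Plod3 over Plod2 (0.05) and Lox over Col1a1 (-0.12) turned, without day 1 replicate 2 Col5a1 (0.12) and Lox over Loxl1 (0.09), and without day 1 replicate 3 Lox over Loxl2 (0.03) and Loxl1 over Eln (0.13). Without 1 array in turn, these values ran from -0.23 to 0.12 for Col5a1, from -0.18 to 0.05 for Plod3 over Plod2, from -0.33 to 0.09 for Lox over Loxl1, from -0.25 to 0.03 for Lox over Loxl2, from -0.11 to 0.36 for Loxl1 over Loxl2, from -0.12 to 0.11 for Lox over Col1a1 and from -0.42 to 0.13 for Loxl1 over Eln. The cause of these turns was not tested.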
